A study of Mus musculus with 6 samples.

Results

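The genes described here are the core of the BCL2 family, the proteins that set whether a cell's mitochondria release the factors that start apoptosis. They were chosen by name, as the array rows with a single gene symbol among 10 listed family members, and 9 of these 10 were measured, out of 19938 genes with such a row. The tenth, Bax, was not analysed here. Each of the 9 had 1 row, so no choice between rows was needed. In this family the pro-survival proteins (Bcl2, Bcl2l1 and Mcl1) hold the effectors Bax and Bak1 in check, the effectors form pores in the outer mitochondrial membrane, and the BH3-only proteins (Bid, Bad, Bcl2l11, Bbc3 and Pmaip1) neutralise the pro-survival proteins or activate the effectors. Blood stem cells are known to depend on Mcl1 to survive, and NF-κB, the transcription factor of which p65 is a subunit, is known to switch on pro-survival genes of this family in other cells. Effectors and BH3-only genes are called pro-death here.

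RNA came from bone marrow cells of p65 knockout (KO) and p65 wild-type (WT) mice, with 3 arrays for each genotype. The array titles do not say whether each array holds cells of 1 mouse or of several. In both groups the cells carried c-kit and Sca-1 and lacked Flk2 and lineage markers, the surface profile of the marrow fraction that holds the blood stem cells. The series title places the deletion of p65 (RelA, gene Rela) in the hematopoietic compartment. The strain, the age, how p65 was deleted and any treatment are not given in the sources used here. All levels below are deposited log2 signals, so a difference of 1 is a doubling of signal. Signals of different genes come from different probes and are not compared with each other.

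Rela had signals of 7.33, 7.48 and 7.35 in KO cells, against 7.52, 7.89 and 7.92 in WT cells. All KO values lay below all WT values, but the log2 fold change of -0.39 (SE 0.16) did not pass the threshold, a limma adjusted p under 0.05 over all genes (adjusted p = 0.209). It passed without WT replicate 1 (log2 fold change -0.51, limma adjusted p = 0.04, over a range of 0.0292 to 0.486 across 17 alternatives). Probes outside the deleted part can keep their signal, so this is a weak check of the genotype. WT replicate 1 stood apart from the other arrays, with an SD of 2.03 over all rows, against 2.22 to 2.29 in the rest. Fold changes also ran with signal across all genes: with genes split by mean signal into 3 equal groups, their median was 0.30 in the brightest group, -0.09 in the middle group and -0.22 in the dimmest group. The part of that trend in the results below was not tested, and each member's brightness group is named with them. Of the genes behind the sort, Kit (c-kit) had signals of 10.02 to 10.18 in KO cells and 10.08 to 10.63 in WT cells, and Flt3 (Flk2) 7.39 to 7.94 in KO cells and 7.31 to 8.08 in WT cells, with overlap in each. Kit did not pass in the reported fit (log2 fold change -0.30, limma adjusted p = 0.327) but passed, lower in KO cells, under 3 of 17 alternatives, with adjusted p of 0.0369 to 0.688 over the 17. Signal for Flt3 was thus present in both groups of a gate that is negative for its protein. Cd34, a surface gene of stem and progenitor cells, had signals of 10.68 to 11.02 in KO cells and 10.69 to 10.88 in WT cells. Slamf1, a stem cell surface gene, also overlapped (log2 fold change -0.09, with its sign turned under 3 of 17 alternatives), and Procr, another, had all KO values below all WT values (-0.69, SE 0.21, limma adjusted p = 0.136). Procr passed, lower in KO cells, under 2 of 17 alternatives (limma adjusted p 0.0223 to 0.394 over the 17). Ly6a (Sca-1) was not analysed here.

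No BCL2 family member passed the threshold: 0 of 9, where 0.818% of all genes passed. Of the 6 measured pro-death genes, 4 (Bak1, Bad, Bid and Pmaip1) had every KO value above every WT value, with folds of 1.29 to 1.52. The 3 pro-survival genes overlapped between the genotypes, as did 13044 of all 19938 genes, and had folds of 1.02 to 1.09. The counts of members with all KO values above all WT values were 4 of 6 among pro-death genes and 0 of 3 among pro-survival genes, where 19.2% of all genes showed this pattern. It was common among bright genes, at 43.9% of the brightest group and 12.6% of the middle group. Of the 4 genes, Bak1 and Bad belong to the brightest group and Bid and Pmaip1 to the middle group. Bid lies at percentile 66.4 of signal, close to the edge of the brightest group. Fewer cells of a type and less RNA per cell cannot be told apart in these bulk samples.

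**Figure D1:**
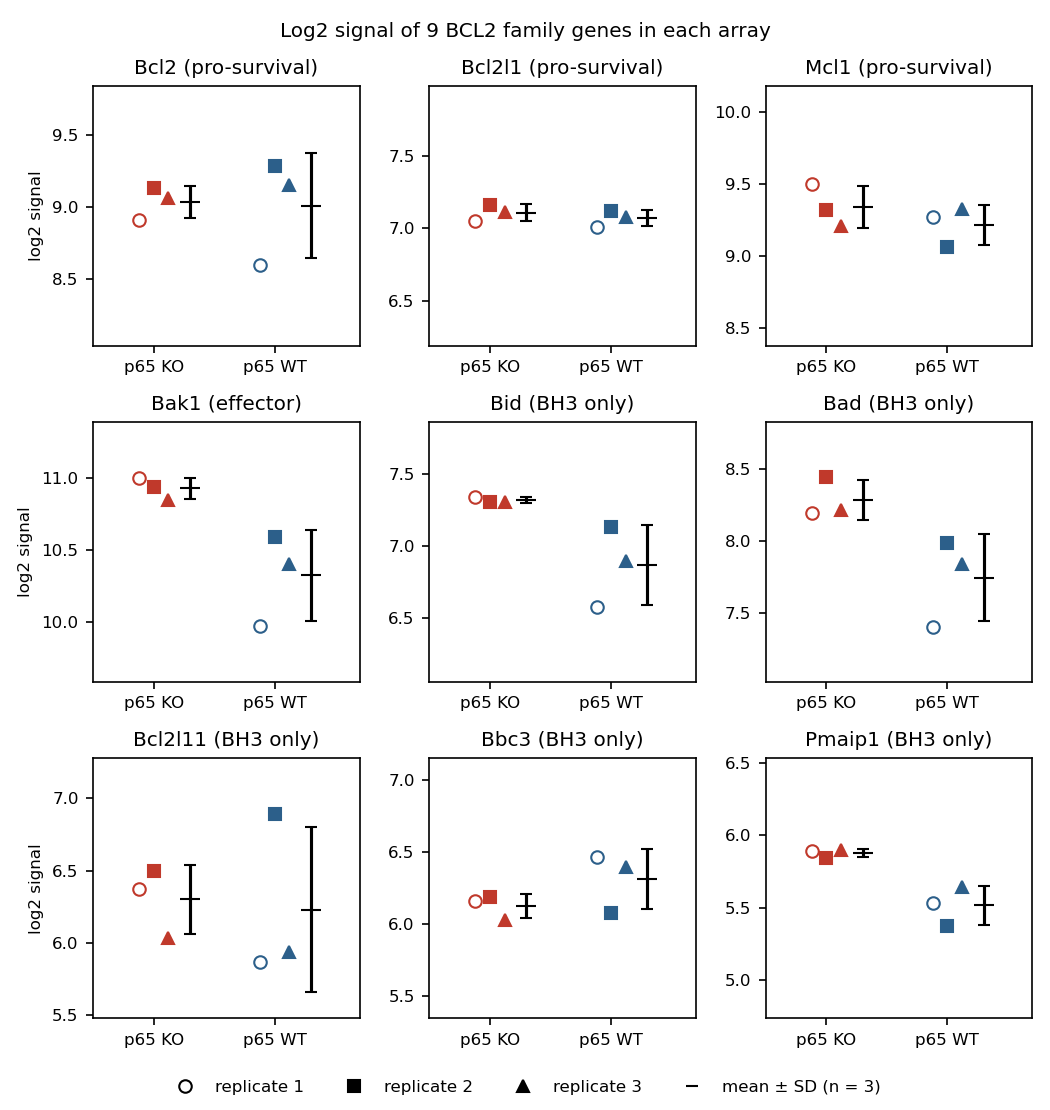
Log2 signal (vertical axes, each spanning the same width) of the 9 measured members in the 3 p65 KO arrays (red, left) and the 3 p65 WT arrays (blue, right). Symbols mark replicates 1 to 3, with replicate 1 open, and black bars give mean ± SD (n = 3). Bak1, Bid, Bad and Pmaip1 show no overlap between the groups, and WT replicate 1 is the lowest array for 6 of the 9 genes.

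Bcl2, the founding member, which blocks cytochrome c release, had signals of 8.91, 9.13 and 9.06 in KO cells, against 8.60, 9.28 and 9.15 in WT cells. The low WT value was that of replicate 1, while all KO values lay below the WT values of replicates 2 and 3. Its log2 fold change was 0.03 (SE 0.20, 95% interval -0.43 to 0.48, limma adjusted p = 0.938), and it turned to -0.18 without WT replicate 1, to -0.24 under quantile normalization and to -0.29 under cyclic loess normalization, none past the threshold. The direction of Bcl2 was therefore not settled in these arrays.

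Bcl2l1, whose long form BCL-XL protects erythroid and megakaryocytic cells, had signals of 7.05, 7.16 and 7.11 in KO cells, against 7.01, 7.12 and 7.08 in WT cells. These 6 values lay within one narrow band, with an SD of 0.06 in each group. The log2 fold change was 0.04 (SE 0.13, limma adjusted p = 0.848), and its 95% interval corresponds to 0.839-fold to 1.26-fold. Transcripts for the long form and for the short, pro-death form of this gene share one row here and were not separated.

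Mcl1, a short-lived protein that binds Bak1 and Bcl2l11, had signals of 9.50, 9.32 and 9.21 in KO cells, against 9.27, 9.06 and 9.33 in WT cells. The groups overlapped, and the log2 fold change was 0.12 (SE 0.15, limma adjusted p = 0.594, 95% interval 0.862-fold to 1.38-fold). Its sign turned under quantile (-0.13) and cyclic loess normalization (-0.17), as did that of Bcl2l1 (-0.0523 and -0.10). The 3 pro-survival genes had a median log2 fold change of 0.04, against -0.04 over all genes. Bcl2 and Mcl1 belong to the brightest group, whose median was 0.30, and both lay below it. Bcl2l1 belongs to the middle group, whose median was -0.09, and lay above that value.

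Bak1 encodes the effector that sits in the outer mitochondrial membrane and forms pores when activated. Its signals were 11.00, 10.94 and 10.85 in KO cells, against 9.98, 10.60 and 10.41 in WT cells. The KO arrays lay close together and above all WT arrays, of which replicate 1 was far the lowest. The log2 fold change was 0.60 (SE 0.18), a fold of 1.52 with a 95% interval of 1.14 to 2.02. With a limma adjusted p of 0.135 it did not pass, and the exact two-sided permutation test gave p = 0.1, the lowest value possible with 3 arrays in each group. Without WT replicate 1 the log2 fold change was 0.43 (limma adjusted p = 0.0735). With array weights, which gave WT replicate 1 a weight of 0.116 and the others 0.935 to 2.2, Bak1 passed (log2 fold change 0.47, limma adjusted p = 0.0428, over a range of 0.0428 to 0.391 across 17 alternatives). Its log2 fold change stayed positive under all 17, from 0.29 to 0.75, where 6 of them change only the error or the genes tested and leave the fold as it is.

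Bad, a BH3-only protein that growth factor signalling holds inactive by phosphorylation, had signals of 8.19, 8.44 and 8.22 in KO cells, against 7.41, 7.99 and 7.84 in WT cells. The groups did not overlap, and WT replicate 1 was again the lowest. Its log2 fold change was 0.54 (SE 0.18, 95% interval 1.09-fold to 1.94-fold, limma adjusted p = 0.162), and 0.37 without WT replicate 1.

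Bid carries the death receptor signal to mitochondria once caspase 8 has cut it. Its signals were 7.34, 7.31 and 7.31 in KO cells, against 6.58, 7.13 and 6.90 in WT cells. The KO values hardly varied (SD 0.02) and lay above a WT group that spread more widely (SD 0.28). The log2 fold change was 0.45 (SE 0.17, 95% interval 1.05-fold to 1.78-fold, limma adjusted p = 0.185), and 0.30 without WT replicate 1.

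Pmaip1, also named Noxa, is a BH3-only protein that binds Mcl1 and is a known target of p53. Its signals were 5.89, 5.84 and 5.90 in KO cells, against 5.53, 5.37 and 5.64 in WT cells. Here WT replicate 1 lay between the other WT arrays, and the groups did not overlap. The log2 fold change was 0.36 (SE 0.14, 95% interval 1.04-fold to 1.60-fold, limma adjusted p = 0.186). It was 0.37 without WT replicate 1, and 0.52 and 0.50 with quantile and cyclic loess normalization. Those settings lowered the log2 fold changes of Bak1 (0.39 under quantile and 0.37 under cyclic loess), Bad (0.34 and 0.26) and Bid (0.39 and 0.30).

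Bcl2l11, also named Bim, is a BH3-only protein that binds all pro-survival members and limits the survival of many blood cells. Its signals were 6.37, 6.50 and 6.03 in KO cells, against 5.87, 6.89 and 5.93 in WT cells. The spread of the WT group (SD 0.57) was the widest of the 9 members, set by a high replicate 2. The log2 fold change was 0.07 (SE 0.28, 95% interval 0.674-fold to 1.64-fold, limma adjusted p = 0.876), which turned to -0.11 without WT replicate 1 and was 0.40 without WT replicate 2.

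Bbc3, also named Puma, is a BH3-only protein and a main p53 target in blood stem and progenitor cells after DNA damage. Its signals were 6.16, 6.19 and 6.03 in KO cells, against 6.47, 6.08 and 6.40 in WT cells. The groups overlapped through WT replicate 2. Bbc3 was the 1 member with a negative log2 fold change, at -0.19 (SE 0.15, limma adjusted p = 0.448). It stayed negative under all 17 alternatives, from -0.31 to -0.04, of which 6 leave the fold as it is.

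**Figure D2:**
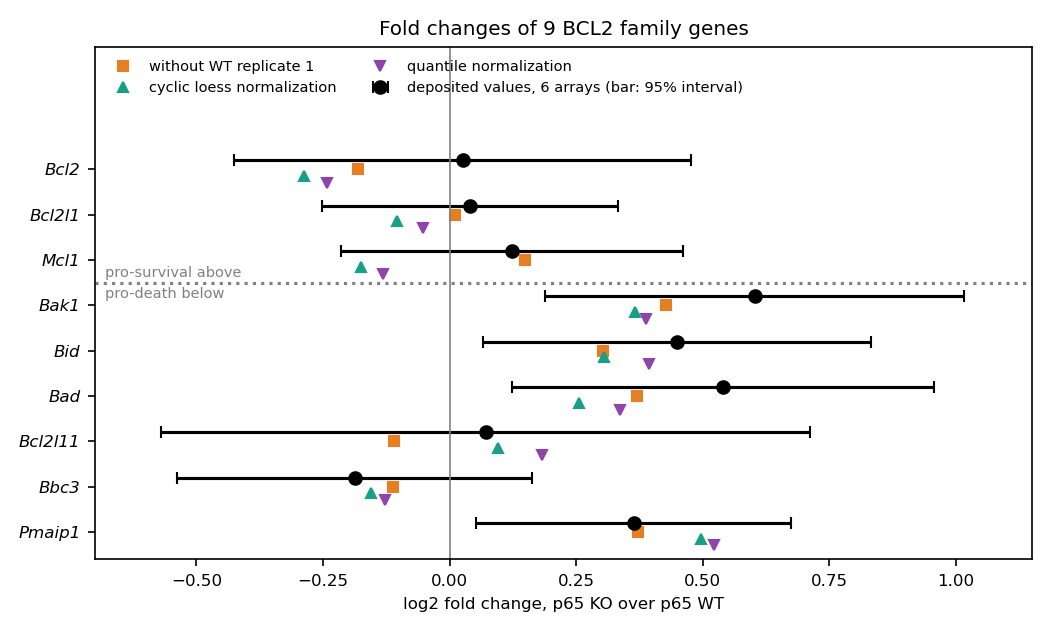
Log2 fold changes (horizontal axis, p65 KO over p65 WT) of the 9 members, pro-survival genes above the dotted line and pro-death genes below it. Black points are the deposited values of all 6 arrays with 95% intervals, and coloured symbols the values without WT replicate 1 and under 2 normalizations. Bak1, Bid, Bad and Pmaip1 stay right of 0 in each, while the signs of Bcl2, Bcl2l1 and Mcl1 turn under both normalizations, and those of Bcl2 and Bcl2l11 without WT replicate 1.

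The pro-death members had a median log2 fold change of 0.41 over 6 genes, against 0.04 over the 3 pro-survival members and -0.04 over all genes. Arrays differed within each genotype. Relative to each gene's mean over the 6 arrays, the pro-death members averaged 0.17, 0.22 and 0.07 in the KO arrays, against -0.35, 0.02 and -0.13 in the WT arrays. The pro-survival members averaged 0.02, 0.08 and 0.00 in the KO arrays, against -0.17, 0.02 and 0.05 in the WT arrays. WT replicate 1 had the lowest mean for both classes. It was the lowest of the 6 arrays for 6 of the 9 members, as it was for 84.2% of the brightest group of genes and 39.0% of all genes. Without it, the KO arrays still lay above both other WT arrays for 4 of 9 members, the same Bak1, Bid, Bad and Pmaip1. They did so for 21.1% of all genes and 44.2% of the brightest group. The KO arrays lay below both for 1 of 9, Bcl2, as for 21.5% of all genes and 11.8% of the brightest group. Without adjustment, 4 of 9 members had a limma p under 0.05, as had 21.6% of all genes.

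**Figure D3:**
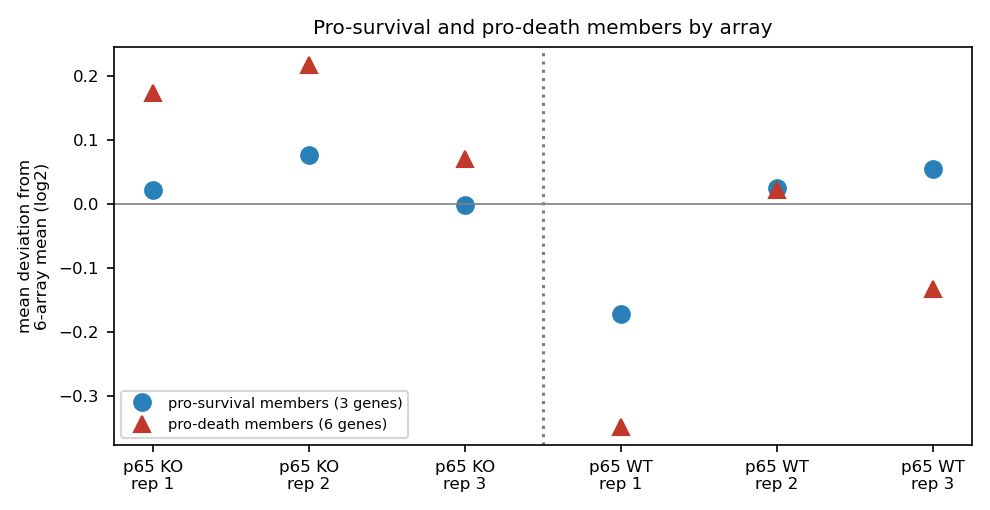
Mean deviation from the 6-array mean of each gene (vertical axis, log2) for the 3 pro-survival (blue circles) and 6 pro-death members (red triangles), in the p65 KO arrays (left) and the p65 WT arrays (right). The pro-death mean is above 0 in all KO arrays (0.07 to 0.22) and runs from -0.35 to 0.02 in the WT arrays, lowest in WT replicate 1, where the pro-survival mean is lowest too.

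**Figure D4:**
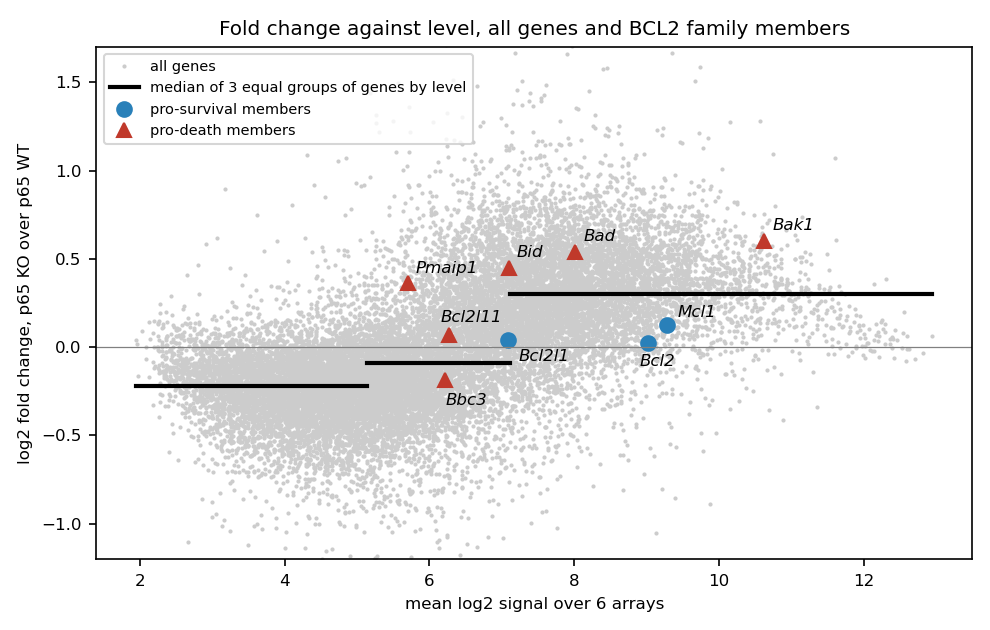
Log2 fold change, p65 KO over p65 WT (vertical axis), against mean log2 signal over 6 arrays (horizontal axis) for all 19938 genes (grey; 66 lie outside the axis) with the 9 members marked. Black lines are the medians of 3 equal groups of genes by signal (-0.22, -0.09 and 0.30). Bak1, Bad, Bid, Pmaip1, Bcl2l1 and Bcl2l11 lie above the line of their own group, and Bcl2, Mcl1 and Bbc3 below it. Bcl2l1, Bid, Bcl2l11, Bbc3 and Pmaip1 belong to the middle group.

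Promoter sequences were taken from RefSeq (GRCm38.p6) as the 250 bases before each annotated start, and 8 of the 9 measured members had such windows, 14 in all, some of them overlapping. The NF-κB consensus motif, searched on both strands, was found in 2 of the 14 windows, where 3.9% of all 32851 windows hold it. Those are a window of Bcl2l1 and one of Bbc3. The looser pattern GGGNNNNNCC, which includes every consensus match and was also searched on both strands, was found in 12 of the 14 windows, where 45.8% of all windows hold it. The fixed letters of the looser pattern are all G or C, and the windows printed below hold 53.2% to 76.4% of these bases. Base composition was not taken into account, so the counts do not show enrichment. A match describes letters in a window and is not a binding site. Shown first are windows of the 3 non-overlapping pro-death genes with the lowest limma p. These are Bak1 (chr17:27028628-27028877, minus strand), Bad (chr19:6941611-6941860, plus strand, 1 of its 2 windows) and Bid (chr6:120916825-120917074, minus strand). Pmaip1, which also did not overlap, had no window. Each window shown holds 1 match of the looser pattern, given in capitals, which reads as its reverse complement where it begins with other letters. The other Bad window holds 5 matches.
Bak1: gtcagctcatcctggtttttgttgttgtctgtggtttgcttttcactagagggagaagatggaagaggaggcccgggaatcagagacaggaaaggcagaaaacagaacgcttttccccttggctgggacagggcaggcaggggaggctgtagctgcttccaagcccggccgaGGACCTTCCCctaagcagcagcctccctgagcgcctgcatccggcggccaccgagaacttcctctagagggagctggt
Bad: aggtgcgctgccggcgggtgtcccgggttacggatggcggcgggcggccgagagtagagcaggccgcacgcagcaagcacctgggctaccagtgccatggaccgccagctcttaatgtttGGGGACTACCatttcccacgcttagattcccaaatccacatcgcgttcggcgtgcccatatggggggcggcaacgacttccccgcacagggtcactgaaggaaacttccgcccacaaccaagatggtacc
Bid: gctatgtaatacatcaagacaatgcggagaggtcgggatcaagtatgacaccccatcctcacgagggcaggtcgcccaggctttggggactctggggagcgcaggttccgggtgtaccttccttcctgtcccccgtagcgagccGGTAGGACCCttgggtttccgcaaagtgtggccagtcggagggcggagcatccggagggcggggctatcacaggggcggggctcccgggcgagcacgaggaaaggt
The consensus windows, with the match in capitals, are those of Bcl2l1 (chr2:152830718-152830967, minus strand), where it begins 242 bases before the start, and Bbc3 (chr7:16309333-16309582, plus strand), where 3 matches on both strands overlap in 1 run that begins 137 bases before the start.
Bcl2l1: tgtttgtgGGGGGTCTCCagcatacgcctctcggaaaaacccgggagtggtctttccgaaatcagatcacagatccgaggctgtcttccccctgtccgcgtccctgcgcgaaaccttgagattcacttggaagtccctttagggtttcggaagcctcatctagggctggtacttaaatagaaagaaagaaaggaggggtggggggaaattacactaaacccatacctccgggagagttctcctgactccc
Bbc3: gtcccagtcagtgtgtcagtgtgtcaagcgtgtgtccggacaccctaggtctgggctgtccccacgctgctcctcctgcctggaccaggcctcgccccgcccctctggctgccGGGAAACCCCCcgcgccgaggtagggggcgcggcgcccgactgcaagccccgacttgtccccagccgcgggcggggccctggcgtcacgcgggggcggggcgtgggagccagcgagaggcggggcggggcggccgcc
Bcl2l1 and Bbc3, which hold the consensus, had log2 fold changes of 0.04 and -0.19, neither past the threshold.

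Among members, Bad and Bid varied most like Bak1. After each gene was centred on its own mean, they differed from Bak1 by an average of 0.07 and 0.08 over the 6 arrays, Pmaip1 by 0.22 and the others by 0.28 to 0.43. The 3 genes of all 19938 nearest to Bak1 by this measure were Fis1, Bcat2 and Gtf2f1, at 0.02, 0.03 and 0.03. Fis1 encodes an outer mitochondrial membrane protein of organelle fission, Bcat2 the mitochondrial branched-chain aminotransferase and Gtf2f1 a subunit of the general transcription factor TFIIF. Fis1 had signals of 10.24, 10.15 and 10.10 in KO cells, against 9.18, 9.78 and 9.63 in WT cells, with the same low WT replicate 1.

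The rest of the apoptosis pathway was read from 5 lists. None of its 60 measured genes passed the threshold (0 of 60, where 0.818% of all genes passed). Without adjustment, 13 of them had a p under 0.05, a share near the 21.6% of all genes. All KO values lay above all WT values for 16 genes and below them for 3, where 19.2% and 15.4% of all genes did so, and 37 of the 60 belong to the brightest group. Their median log2 fold change was 0.13, and 0.04 without WT replicate 1. Without that array 5 of the 60 passed, where 4.66% of all genes did: Cycs, Htra2, Endog and Dynll1 were higher in KO cells and Foxo3 was lower. Endog, a mitochondrial nuclease, and Foxo3, a transcription factor that acts on BH3-only genes, are named here after their values were seen. Foxo3 had signals of 8.70, 8.71 and 8.68 in KO cells, against 8.36, 9.22 and 9.09 in WT cells.

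The genes downstream of the mitochondrial pore, the apoptosome and caspase list, were positive throughout: 13 of 13 had a log2 fold change above 0, where 45.9% of all genes did, and 8 of 13 had no overlap. Their median log2 fold change was 0.44, and 11 of the 13 belong to the brightest group, where 43.9% of genes show that separation. Without WT replicate 1, 10 of 13 were positive, where 45.3% of all genes were, and the median was 0.23. In that setting 8 of 13 still had all KO values above both other WT values. The same held for 21.1% of all genes and 44.2% of the brightest group. Cycs, the gene of cytochrome c, which activates the apoptosome once it leaves the mitochondrion, had signals of 10.49, 10.35 and 10.22 in KO cells, against 9.23, 9.32 and 9.77 in WT cells. All its KO values lay above its WT values, with a log2 fold change of 0.91 (SE 0.18, limma adjusted p = 0.0647), and with the replicate number as a block it rose (limma adjusted p = 0.0488, over a range of 0.0157 to 0.345 across 17 alternatives). Htra2, a mitochondrial protease that is released with it and blocks inhibitors of caspases, had signals of 9.74, 9.44 and 9.57 in KO cells, against 8.83, 8.76 and 8.91 in WT cells. Its log2 fold change was 0.75 (SE 0.14, limma adjusted p = 0.0603), and without WT replicate 1 it rose (log2 fold change 0.74, limma adjusted p = 0.0292, over a range of 0.0125 to 0.299).

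Regulators of BCL2 family proteins had a median log2 fold change of 0.21, with 10 of 13 positive and 0 past the threshold. Over all genes 45.9% were positive. Of the 13, 12 belong to the brightest group, whose median of 0.30 lay above that of this list. Dynll1, a dynein light chain that holds Bcl2l11 at the cytoskeleton, had signals of 10.26, 10.05 and 10.18 in KO cells, against 9.10, 9.69 and 9.57 in WT cells (log2 fold change 0.71, SE 0.18, limma adjusted p = 0.103). Without WT replicate 1 it rose (log2 fold change 0.53, limma adjusted p = 0.0449, over a range of 0.0255 to 0.367). Hax1, a mitochondrial protein needed for the survival of neutrophils, had 8.80, 8.85 and 8.84 in KO cells, against 8.21, 8.49 and 8.42 in WT cells (log2 fold change 0.45, limma adjusted p = 0.136), and passed with array weights alone (limma adjusted p = 0.0477, over a range of 0.0477 to 0.574).

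The other members of the family had a median log2 fold change of 0.00, with 6 positive and 6 negative of 12 measured. Bcl2l13, a mitochondrial family member with a role in mitophagy, had signals of 6.75, 6.63 and 6.69 in KO cells, against 6.04, 6.23 and 6.42 in WT cells (log2 fold change 0.46, SE 0.15, limma adjusted p = 0.15). Bmf, a BH3-only gene, had 5.55, 5.77 and 5.81 in KO cells, against 5.96, 5.99 and 5.93 in WT cells, all KO values below all WT values (log2 fold change -0.25, limma adjusted p = 0.298). The Bcl2a1 genes, known NF-κB targets of this family, were not analysed here.

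The p53 and FoxO list had a median log2 fold change of 0.07 over 13 of its 15 genes. Trp53, the gene of p53 itself, and Cdkn1a were not analysed here. Its lowest p-values belonged to Zmat3, a p53 target (log2 fold change 0.43, SE 0.13, limma adjusted p = 0.139), and Mdm4, an inhibitor of p53 (0.63, SE 0.21, limma adjusted p = 0.159), each with all KO values above all WT values. The death receptor list had a median of 0.13 over 9 genes, without Ripk1, which was not analysed here. All 9 overlapped between the genotypes, as did 13044 of all 19938 genes. Fas, the receptor whose signal can pass through Bid, had signals of 5.13, 5.04 and 5.24 in KO cells, against 6.11, 5.15 and 5.81 in WT cells (log2 fold change -0.55, SE 0.24, limma adjusted p = 0.227). For Tnfrsf1a, a TNF receptor, the log2 value was 0.36 (limma adjusted p = 0.295).

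**Figure D5:**
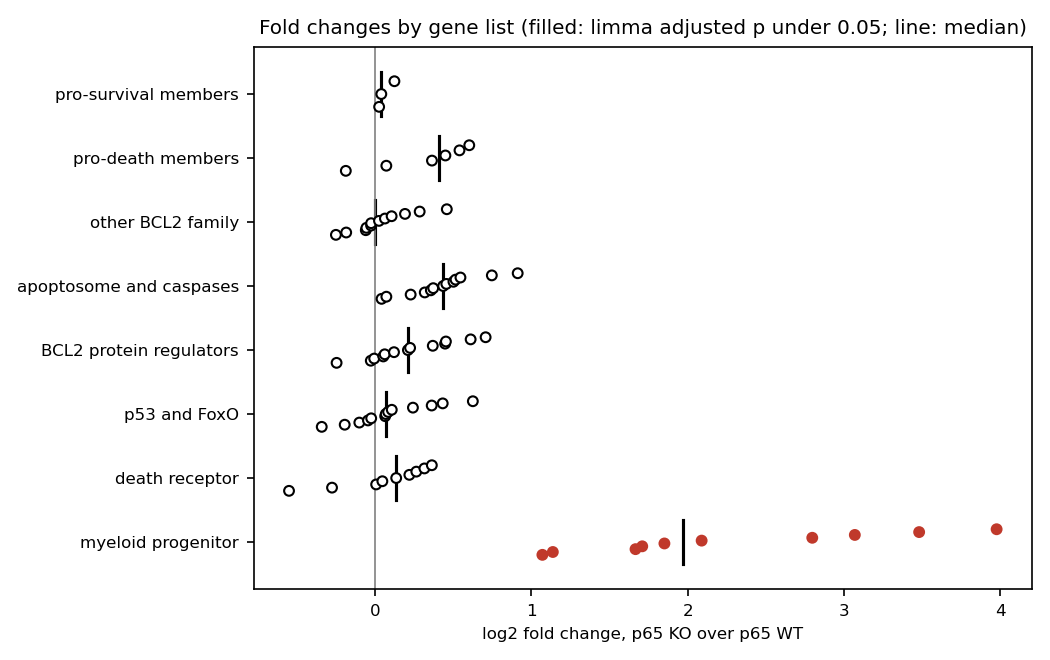
Log2 fold changes, p65 KO over p65 WT (horizontal axis), of every measured gene in the BCL2 family classes, the 5 pathway lists and a list of myeloid progenitor genes. Points are genes, filled where limma's adjusted p is under 0.05, and black lines are list medians. The medians are 0.04 for pro-survival members, 0.41 for pro-death members and 0.44 for the apoptosome and caspase genes, with no filled point, against 1.97 for the myeloid progenitor genes, all 10 filled. The lists were chosen with earlier results of these data known, and 0.818% of all genes passed.

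Markers of other cells were set beside these values. All 10 of 10 listed myeloid progenitor genes rose past the threshold, where 0.818% of all genes passed in either direction. Their median log2 fold change was 1.97, led by Elane, the neutrophil elastase gene (3.98, SE 0.21, limma adjusted p = 0.00027). This list was chosen with earlier results of these data known, so its count is not an independent result. The mean signal of that list was 9.44 to 9.83 in KO cells and 7.29 to 7.42 in WT cells, so it moved with genotype as Bak1, Bad, Bid and Pmaip1 did, and its part in their values was not tested. The list of mature granulocyte and macrophage markers had means of 5.37 to 5.49 in KO cells and 5.32 to 5.79 in WT cells. None of its 14 genes passed in the reported fit. The log2 fold change was positive for 3 and negative for 11 (median -0.08), where 45.9% of all genes were positive. All KO values lay below all WT values for 5 and above them for 1, where 15.4% and 19.2% of all genes did so. Cxcr2, a neutrophil chemokine receptor gene and 1 of the 3 positive genes, had the largest difference (1.14, limma adjusted p = 0.0531). Cxcr2 passed, higher in KO cells, under 6 of 17 alternatives (limma adjusted p 0.00897 to 0.236 over the 17). Lymphocyte markers averaged 6.17 to 6.35 in KO cells and 6.19 to 6.28 in WT cells. Of the 7 genes, 3 were positive and 4 negative (median -0.21). Only 1 of 7, Nkg7, a granule gene of cytotoxic cells, rose past the threshold (1.09, limma adjusted p = 0.0483), a call lost under 8 of 17 alternatives. Erythroid markers averaged 8.75 to 9.62 in KO cells and 8.67 to 9.10 in WT cells, where Ermap differed most (0.64, limma adjusted p = 0.308). Stroma and endothelium markers averaged 5.55 to 5.62 in KO cells and 5.64 to 5.87 in WT cells. Of these 6 genes, 1 was positive and 5 negative (median -0.20). Pecam1, the 1 positive gene, differed most (0.29, limma adjusted p = 0.38). Its sign turned under cyclic loess normalization (-0.00525, and -0.0119 with WT replicate 1 left out too).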

How the data were processed

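Expression was measured in 6 samples, 1 array per sample. The authors deposited 1 table of log2 values with 35557 rows. RMA, Partek and the Affymetrix Expression Console are listed in the submitters' processing notes, with no version; a genome build is not given there. The design text names an exon array, while the probe annotation is that of a gene array. RMA corrects for background, brings arrays to a common scale and combines each gene's probes as a log2 value. Amplification of small RNA amounts (NuGEN Pico, per the labels' protocols) can alter the signal range of a sample. Rows with 1 symbol were used (21789), and the brightest row of each of 999 genes with several, which left 19938 genes.

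A linear model with genotype alone was fitted to all genes with limma 3.58.1 under R 4.3.3 (4 residual degrees of freedom). Its moderated test was two-sided, and p-values were adjusted by Benjamini-Hochberg across the whole table, with a threshold of 0.05. The fit was tested on simulated data. Deviations from group means of same-numbered arrays (replicates 1, 2 and 3) correlated at 0.368, 0.119 and 0.162, all over the 0.1 set as the rule for pairing. However, WT replicate 2 with KO replicate 3 (0.195) and WT replicate 3 with KO replicate 2 (0.183) correlated more than same-numbered replicates 2 and 3. The numbers thus do not establish pairs of mice, and the labels do not say what a number marks. Nothing says whether mice shared a litter or a sort day, and p-values measure only the spread between these arrays. Alternatives were the replicate block, quantile and cyclic loess normalization, median centring, leaving out the dimmest genes, intensity trend, robust variance, array weights, other row choices and leaving out each array. Leaving out WT replicate 1 together with cyclic loess was added after seeing the data. Members and lists were chosen with earlier results of these data known. All members are named, with Rela, the 2 genes of lowest p in each pathway list (or those past the threshold), the sort genes, the largest difference in each marker list and the 3 genes nearest to the member of lowest p. Features without a single symbol were not used here. The number of arrays limits the precision.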

Additional observations from a re-analysis of the deposited data

How the results depend on the processing

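Under the 17 alternatives, 6 of which leave each member's log2 fold change as it is, 136 of 153 member values kept their direction and their side of the threshold. One, Bak1 with array weights, passed, so that setting gave 1 member past the threshold; the 16 other alternatives gave 0, as did leaving out each array in turn (0 to 0). The sign turned in 16, none of them past the threshold. Bcl2 was -0.24 (quantile), -0.29 (cyclic loess), -0.12 (array weights) and -0.33 (WT replicate 1 left out with cyclic loess, an alternative chosen after seeing the data), and ran from -0.18 to 0.16 with arrays left out in turn, negative without KO replicate 2 or WT replicate 1. Under quantile, cyclic loess and that added alternative, Bcl2l1 was -0.0523, -0.10 and -0.0224 and Mcl1 -0.13, -0.17 and -0.000335. Bcl2l11 was -0.0653 under the added alternative and ran from -0.11 to 0.40 with arrays left out, negative without KO replicate 2, WT replicate 1 or WT replicate 3. With the replicate number as a block no member passed (limma adjusted p 0.101 to 0.929), and Cycs was the 1 pathway gene that did.

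The pro-death median stayed positive under all 17 alternatives, of which 6 leave the folds as they are. It was 0.55 with arrays centred on medians, which shifts every gene by 0.146, 0.25 under the added alternative, and 0.34 to 0.49 with arrays left out in turn. The pro-survival median was -0.13 under quantile, -0.17 under cyclic loess, 0.19 with arrays centred on medians and 0.01 to 0.10 with arrays left out in turn. Pathway genes past the threshold numbered 1 with the replicate block, 1 with arrays centred on medians, 2 without the dimmest genes, 6 with array weights, 1 under the added alternative, and 0 to 5 with arrays left out in turn, 5 without WT replicate 1. Among all genes 163 passed as reported, 372 with the block, 1599 with array weights, 468 without the dimmest genes, 104 under quantile, 439 under the added alternative, 929 without WT replicate 1 and 21 to 75 without any other array. Signs also turned, none past the threshold, for Cd34 (-0.146 under quantile, -0.19 under cyclic loess, -0.126 under the added alternative, -0.0698 to 0.10 with arrays left out), Flt3 (-0.0967, -0.18 and -0.18 under the same settings, -0.12 with array weights, -0.0926 to 0.29 with arrays left out), Slamf1 (0.0542 with arrays centred, -0.34 to 0.0877 with arrays left out) and Pecam1 (-0.00525 under cyclic loess and -0.0119 under the added alternative). The cause of these changes was not tested. The members' 95% intervals were 0.58 to 1.28 wide on the log2 scale, which limits what differences could be detected.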
